A study of Mus musculus with 10 samples.

Results

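The TGF-beta pathway core described here comprises 10 genes: the ligands Tgfb1, Tgfb2 and Tgfb3, the receptors Tgfbr1, Tgfbr2 and Tgfbr3, and the SMADs Smad2, Smad3, Smad4 and Smad7. They were chosen by name, with earlier results of these data known, and their probes were found by matching accessions to mouse gene symbols. All 10 passed the filter on dim probes, among 14532 named genes that did. The array holds 16 probes for them on 34 spots, and 15 of these probes were bright enough to test. Their RNA levels were compared between livers of 6 mice that received metformin with CCl4 and 4 that received CCl4 alone.

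All 10 mice were male TG221 animals, which carry a miR-221 transgene on a B6D2F2 background. Carbon tetrachloride (CCl4), a hepatotoxin used to produce liver fibrosis, was given to every mouse as a 20% (v/v) solution in olive oil, 3 gavages a week over 14 weeks, beginning at an age of 4 to 6 weeks. Metformin, a biguanide drug for type 2 diabetes, was dosed orally at 300 mg/kg every day in the metformin group, beginning 3 weeks into the CCl4 course, and livers of both groups were collected at 24 weeks. The labels give the tissue as liver and the cell type as hepatocellular carcinoma, do not name the promoter of the transgene, and include no mice free of CCl4 or of the transgene. Hepatocyte markers were bright in every mouse (8 of 8 tested, summed log2 level 12.3 to 12.6 with metformin and 12.5 to 12.7 with CCl4 alone). Of 4 hepatocellular carcinoma markers (Afp, Gpc3, Spink1 and Tspan8), 0 passed the limma test between the groups (0 at an unadjusted p below 0.05). Gpc3 passed the filter on dim probes through the CCl4 mice alone. A test between the groups cannot show whether carcinoma was present in both.

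TGF-beta is secreted as a latent complex, tethered to the matrix by latent TGF-beta binding proteins and fibrillins and released by integrins and proteases. The active dimer binds TGFBR2, which recruits and phosphorylates TGFBR1; TGFBR1 then phosphorylates SMAD2 and SMAD3, and these enter the nucleus with SMAD4 and regulate transcription. SMAD7 is an inhibitory SMAD that is itself induced by the pathway and directs the receptors to degradation, and in the injured liver TGF-beta is the classical signal for stellate cells to become matrix-producing myofibroblasts.

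All mice share the miR-221 transgene, so its guide strand is shown first. The RefSeq mature sequence of miR-221-3p (GRCm38.p6, chrX:19146307-19146329, minus strand), with the seed, bases 2 to 8, in capitals, is:
miR-221-3p: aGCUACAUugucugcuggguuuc

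Tgfb1 and Tgfb2 fell together in the comparison below, and both have an entry in the RefSeq promoter table, so the 250 bases before their start are shown here. The Tgfb1 stretch lies at chr7:25686752-25687001 (GRCm38.p6, plus strand) and the Tgfb2 stretch at chr1:186705990-186706239 (minus strand). Capitals mark matches, on either strand, to a GC box (GGGCGG), a SMAD element (CAGACA), a palindromic SMAD element (GTCTAGAC), an AP-1 element (TGANTCA) or an E-box (CACGTG); no matches overlap one another in these sequences.
Tgfb1: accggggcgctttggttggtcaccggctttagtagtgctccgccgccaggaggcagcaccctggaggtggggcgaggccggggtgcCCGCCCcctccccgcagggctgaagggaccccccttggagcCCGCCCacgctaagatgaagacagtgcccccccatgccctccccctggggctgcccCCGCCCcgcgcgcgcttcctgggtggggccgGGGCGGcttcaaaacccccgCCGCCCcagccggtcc
Tgfb2: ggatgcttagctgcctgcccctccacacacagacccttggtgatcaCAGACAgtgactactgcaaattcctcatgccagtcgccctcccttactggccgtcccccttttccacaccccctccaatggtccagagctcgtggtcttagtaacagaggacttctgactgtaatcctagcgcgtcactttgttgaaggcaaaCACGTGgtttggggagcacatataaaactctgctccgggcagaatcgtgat

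The 2 stretches differ in composition: 75.2% of the Tgfb1 bases and 53.6% of the Tgfb2 bases are G or C, against a median of 52.4% over all 32851 promoters in the table. Tgfb1 holds 5 GC boxes and none of the other 4 motifs. Tgfb2 holds 1 SMAD element, 204 bases before the start, and 1 E-box, 51 bases before it, and no GC box. Over all promoters of this length, 32.7% hold a GC box, 17.1% the CAGACA element, 6.75% the AP-1 element, 6.02% the E-box and 0.167% the palindromic SMAD element. A match is a description of letters and was not tested as a binding site.

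Each liver was hybridised to 1 array. Spot intensities were put on the log2 scale relative to the array's own 75th percentile, which ran from 237 to 363 intensity units, and 51.2% to 54.9% of the probes were well above background on an array. A level of 0 therefore means the brightness of the 75th percentile spot, and levels are compared between mice for 1 probe at a time, since probes differ in how well they bind. Over all features, the correlation of any pair of arrays was 0.984 to 0.993 in the same group and 0.963 to 0.976 across groups. The metformin arrays were all on 1 slide and the CCl4 arrays all on another, and slide and metformin cannot be told apart. With limma and Benjamini-Hochberg adjustment over all features, an adjusted p below 0.05 was reached by 45.4% of 22180 features (28% higher and 17.4% lower with metformin), and the median log2 fold change over all features was 0.10. Scaling to the spike-in transcripts in place of the 75th percentile shifts every log2 fold change by -0.55, which moves that median to -0.45 and the share of higher genes among the calls from 61.7% to 8.89%; it was 54.1% with median scaling and 54.3% with quantile normalization.

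All 3 ligand genes fell with metformin, as did 1 of 3 receptors, while 2 of 4 SMADs rose. Of the 10 genes, 4 were lower (Tgfb1, Tgfb2, Tgfb3 and Tgfbr2) and 2 were higher (Smad2 and Smad7) at an adjusted p below 0.05, against 45.4% of all features, so the count of 6 stands near the background. Their median log2 fold change was -0.18, against 0.10 over all features. In 3 of the 10 the groups did not overlap, Tgfb1 and Tgfb3 with metformin lower and Smad2 with metformin higher, against 33.7% of all features. Because whole liver was measured, fewer cells of a type and less RNA per cell cannot be told apart.

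**Figure D1:**
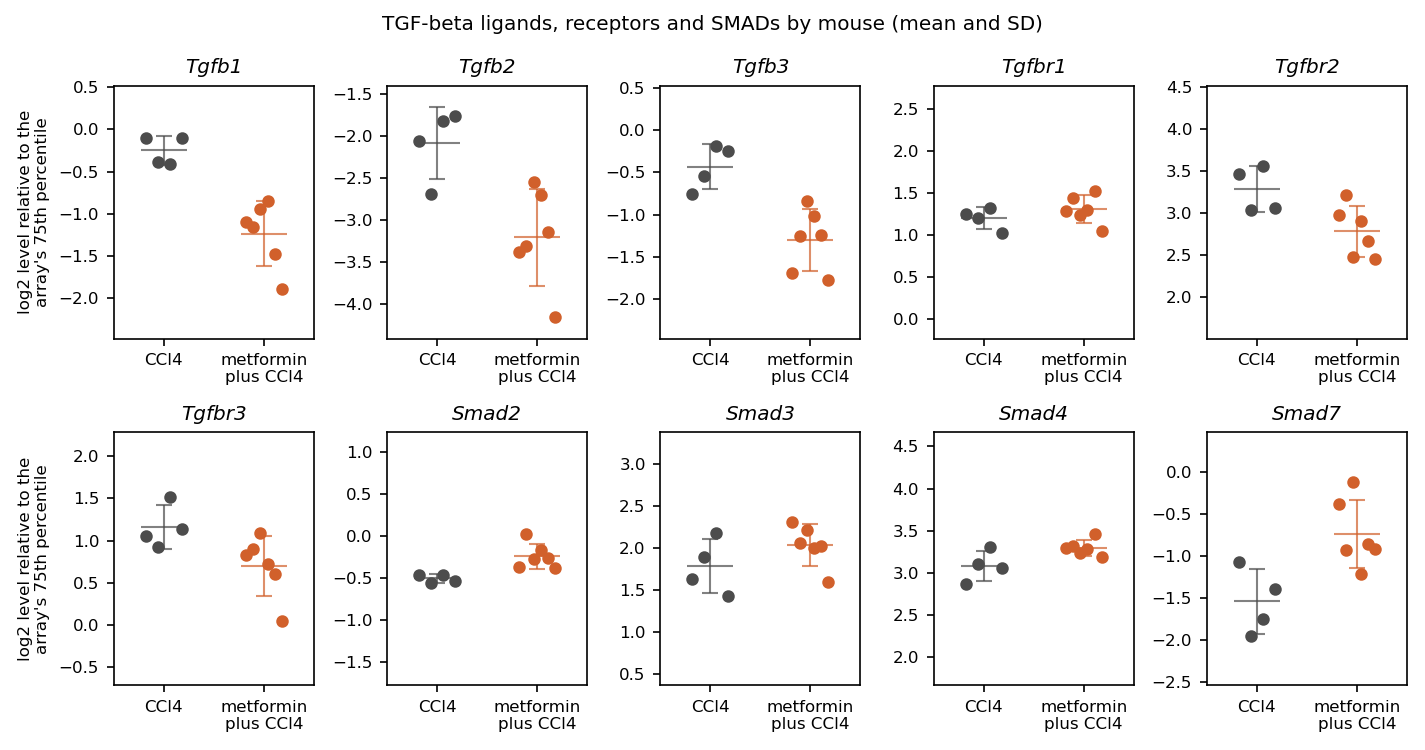
Log2 level of each gene relative to the array's 75th percentile (vertical axis, the same span of 3 log2 units in every panel) in 4 CCl4 mice (grey) and 6 metformin plus CCl4 mice (orange); points are mice, horizontal lines are means and bars are SD. Tgfb1 and Tgfb3 of the metformin mice all lie under the CCl4 mice, Smad2 of the metformin mice all lies above them, and the other 7 genes overlap.

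Tgfb1 encodes the ligand most closely tied to liver fibrosis. Its log2 level was -1.10, -1.16, -0.94, -0.85, -1.48 and -1.89 in metformin mice 1 to 6 and -0.10, -0.38, -0.41 and -0.10 in CCl4 mice 1 to 4. Every metformin mouse was below every CCl4 mouse, and metformin mouse 6 was the lowest. The group means were -1.24 ± 0.39 (SD, n = 6) and -0.25 ± 0.17 (SD, n = 4), a 1.99-fold lower level in the metformin mice (log2 fold change -0.99 ± 0.19 SE, limma adjusted p = 0.00219). An exact two-sided permutation test over the 210 assignments of the mice gave p = 0.00952, the smallest it can give. The probe is spotted 10 times on each array, and the SD between these spots was 0.045 to 0.126, below the spread between mice in either group.

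Tgfb2 was 2.18-fold lower. Metformin mice 1 to 6 stood at -3.39, -3.31, -2.55, -2.71, -3.14 and -4.16 and CCl4 mice 1 to 4 at -2.07, -2.69, -1.82 and -1.76. CCl4 mouse 2 fell within the range of the metformin mice, so the groups overlapped. The log2 fold change was -1.12 ± 0.30 SE (limma adjusted p = 0.0121; exact permutation p = 0.0190). The signal was dim, well above background in 5 of 6 metformin mice and 4 of 4 CCl4 mice, and normexp background correction reduced the log2 fold change to -0.48 (limma adjusted p = 0.00593). A second probe, dimmer still, gave -0.65 ± 0.30 SE, which did not pass (limma adjusted p = 0.0981).

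Tgfb3, the third isoform, stood at -1.70, -1.26, -0.84, -1.02, -1.25 and -1.78 in metformin mice 1 to 6. In CCl4 mice 1 to 4 it stood at -0.76, -0.54, -0.19 and -0.24, and no metformin mouse reached the lowest of these. Metformin livers thus had a 1.83-fold lower level (log2 fold change -0.87 ± 0.20 SE, limma adjusted p = 0.00518, exact permutation p = 0.00952). Its 10 spots per array differed by an SD of 0.035 to 0.140.

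The changes of the 3 ligands did not differ beyond the spread between mice. The within-array difference between Tgfb1 and Tgfb2 changed by 0.13 between groups, that between Tgfb1 and Tgfb3 by -0.12 and that between Tgfb2 and Tgfb3 by -0.25, and none of these passed an exact permutation test (p = 0.552, 0.590 and 0.276; adjusted over the 8 gene pairs compared, 0.787, 0.787 and 0.552). Such a miss does not show that the ligands fell equally. Apart from the second Tgfb2 probe (-0.65, adjusted p = 0.0981), each ligand remained called lower in every alternative run in which its representing probe was tested (22 for Tgfb1 and Tgfb3, 21 for Tgfb2), with log2 fold changes from -1.54 to -0.70 for Tgfb1, -1.67 to -0.48 for Tgfb2 and -1.42 to -0.62 for Tgfb3. Within the row of the slides that holds mice of both groups (metformin mice 1 and 2 and all 4 CCl4 mice), the values were -0.88, -1.26 and -1.05 (limma adjusted p = 0.0108, 0.0211 and 0.0189).

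**Figure D2:**
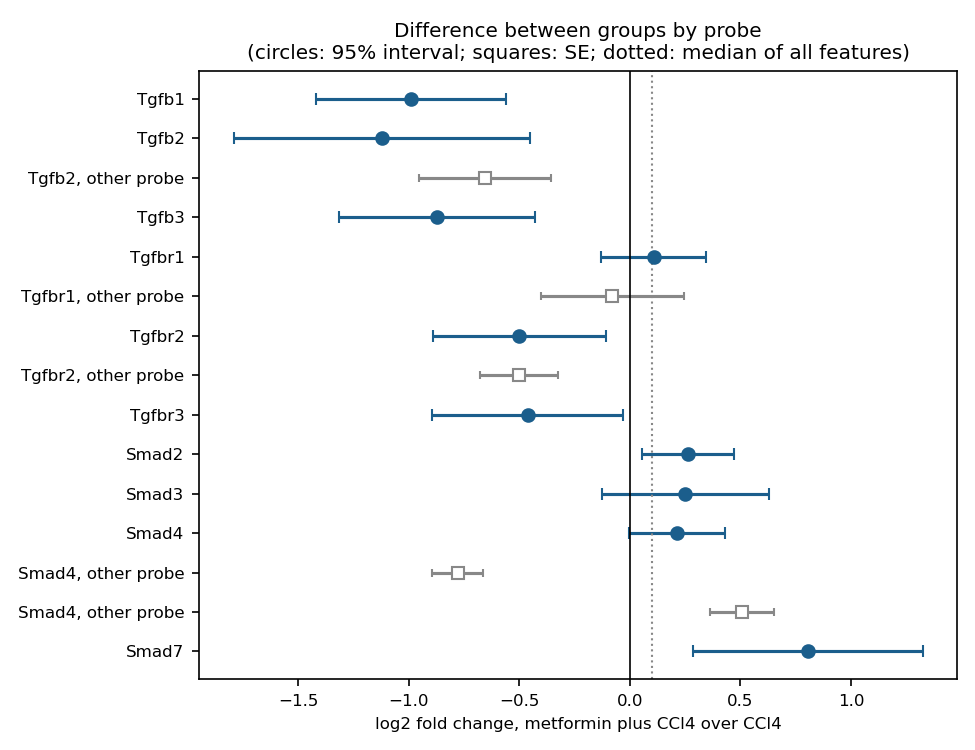
Log2 fold change, metformin plus CCl4 over CCl4 (horizontal axis), for the probe that represents each gene (circles, with the 95% confidence interval) and for its other tested probes (open squares, with SE); the dotted line is the median of all features, 0.10. The 3 ligands lie left of the line with intervals that do not reach 0, and the 3 Smad4 probes lie on both sides of it.

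Of the 3 receptors, 1 was called. Tgfbr2, the receptor that binds the ligand first, had log2 levels of 2.97, 3.21, 2.47, 2.90, 2.66 and 2.45 in metformin mice 1 to 6 and 3.47, 3.03, 3.56 and 3.06 in CCl4 mice 1 to 4. Metformin mouse 2 exceeded 2 of the CCl4 mice. The log2 fold change was -0.50 ± 0.18 SE (1.41-fold lower, limma adjusted p = 0.0401, exact permutation p = 0.0476), and a second Tgfbr2 probe also gave -0.50 ± 0.18 SE (limma adjusted p = 0.0407). The call was lost in 11 of 22 alternatives; within the shared slide row the value was -0.19 (limma adjusted p = 0.504), and it lost the call without CCl4 mouse 1 (-0.44, adjusted p = 0.106), without CCl4 mouse 3 (-0.41, adjusted p = 0.116) and without metformin mouse 3, 4, 5 or 6 (adjusted p from 0.0510 to 0.0732).

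Tgfbr1, the signalling kinase of the receptor pair, ran from 1.05 to 1.52 in the metformin mice, with a median of 1.29, and stood at 1.25, 1.20, 1.32 and 1.02 in the CCl4 mice. The groups lay over one another, and the log2 fold change was 0.11 ± 0.11 SE (95% interval -0.13 to 0.35, limma adjusted p = 0.440). Tgfbr3, or betaglycan, presents the ligand to the receptors and also exists as a shed form. It ran from 0.04 to 1.09 in the metformin mice, with a median of 0.77, and stood at 1.05, 0.93, 1.52 and 1.14 in the CCl4 mice; metformin mouse 6 was lowest. Its log2 fold change of -0.46 ± 0.20 SE did not pass (limma adjusted p = 0.0764). Tgfbr3 was called in 2 of 22 alternatives, without metformin mouse 3 (-0.54, adjusted p = 0.0434) and with spike-in scaling (-1.01, adjusted p = 0.00833).

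Tgfbr1 and Tgfbr2 moved unequally within the same arrays. The log2 level of Tgfbr1 minus that of Tgfbr2 was -1.69, -1.77, -1.24, -1.60, -1.14 and -1.41 in metformin mice 1 to 6 and -2.22, -1.83, -2.24 and -2.05 in CCl4 mice 1 to 4. All 6 metformin mice lay above all 4 CCl4 mice, by 0.61 on average (exact permutation p = 0.00952, adjusted over 8 pairs 0.0381). The value depended on the probe: with the mean of the probes of each gene it was 0.52 (adjusted p = 0.305). In the shared slide row it was 0.35.

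Among the SMADs, Smad7 rose while the ligands fell. Metformin mice 1 to 6 had log2 levels of -0.38, -0.93, -0.11, -1.21, -0.86 and -0.92 and CCl4 mice 1 to 4 of -1.07, -1.95, -1.74 and -1.39. Metformin mouse 4 was below CCl4 mouse 1, and the other 5 metformin mice were above all CCl4 mice. The log2 fold change was 0.80 ± 0.23 SE (1.75-fold higher, limma adjusted p = 0.0176, exact permutation p = 0.0190). The call was lost without CCl4 mouse 2 (0.67, adjusted p = 0.0584), without CCl4 mouse 3 (0.73, adjusted p = 0.0521) and within the shared slide row (0.88, adjusted p = 0.0621), and the spike-in scaling gave 0.25 (adjusted p = 0.446).

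Tgfb1 and Smad7 changed unequally within the same arrays, a comparison that array scaling by 1 value cannot alter. Tgfb1 minus Smad7 was -0.72, -0.23, -0.83, 0.35, -0.62 and -0.97 in metformin mice 1 to 6 and 0.96, 1.56, 1.34 and 1.30 in CCl4 mice 1 to 4. No metformin mouse reached the lowest CCl4 mouse. Since Tgfb1 was already called lower and Smad7 higher, this is no separate support for either change. How often a pair of features separates the groups was not counted, for this pair or for Tgfbr1 and Tgfbr2. The difference changed by -1.79 (exact permutation p = 0.00952, adjusted over 8 pairs 0.0381), by -1.96 to -1.70 when any 1 mouse was left out, and by -1.76 in the shared slide row. With the mean of each gene's probes in every pair the value was unaltered but, because fewer of the 8 pairs then had small p-values, its adjusted p became 0.0762.

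**Figure D3:**
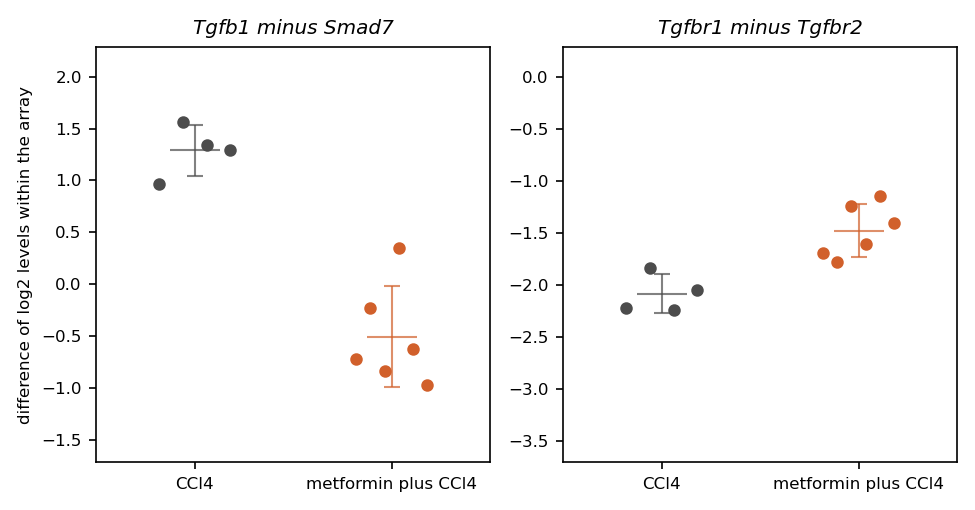
Difference of log2 levels within the array (vertical axis, the same span in both panels) for Tgfb1 minus Smad7 and for Tgfbr1 minus Tgfbr2 in 4 CCl4 mice (grey) and 6 metformin plus CCl4 mice (orange); points are mice, horizontal lines are means and bars are SD. In neither panel do the groups overlap, with a change of -1.79 in the left panel and 0.61 in the right one.

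Smad2, one of the SMADs that the receptor phosphorylates, rose by a small amount: -0.36, 0.02, -0.27, -0.17, -0.26 and -0.38 in metformin mice 1 to 6 against -0.46, -0.56, -0.45 and -0.53 in CCl4 mice 1 to 4. The groups did not overlap, although the gap between the nearest mice was small beside the range of the metformin group. The log2 fold change was 0.26 ± 0.094 SE (1.20-fold higher, limma adjusted p = 0.0423), and relative to the median of all features it was 0.16. The call held in 6 of 22 alternatives and the sign turned with spike-in scaling (-0.29, adjusted p = 0.227); it was lost when any 1 of the 4 CCl4 mice was left out (0.24 to 0.28, adjusted p from 0.0661 to 0.105) and without metformin mouse 2, 3, 4 or 5 (adjusted p from 0.0589 to 0.0757).

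Smad3, the other receptor-regulated SMAD of this pathway, ran from 1.59 to 2.31 in the metformin mice, with a median of 2.04, and stood at 1.63, 1.89, 2.17 and 1.43 in the CCl4 mice. The groups overlapped (log2 fold change 0.25 ± 0.17 SE, 95% interval -0.12 to 0.63, limma adjusted p = 0.250). A second Smad3 probe was well above background in 3 of 6 metformin mice and 2 of 4 CCl4 mice and was not tested. The changes of Smad2 and Smad3 differed by 0.01 (exact permutation p = 0.971), and those of Smad3 and Smad7 by -0.55 (exact permutation p = 0.143).

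Smad4, the shared partner of the receptor-regulated SMADs, had no single direction. The brightest of its 3 probes, which represents the gene, stood at 3.30, 3.31, 3.24, 3.28, 3.46 and 3.18 in metformin mice 1 to 6 and at 2.87, 3.11, 3.30 and 3.05 in the CCl4 mice, a log2 fold change of 0.21 ± 0.098 SE that did not pass (limma adjusted p = 0.101; 0.0414 without CCl4 mouse 3). A second Smad4 probe stood at 0.88, 0.92, 0.61, 0.71, 0.58 and 0.44 in the metformin mice and at 1.57, 1.31, 1.57 and 1.44 in the CCl4 mice, with no overlap, and was lower with metformin (log2 fold change -0.78 ± 0.11 SE, limma adjusted p = 4.4e-04). The third probe stood at -1.80, -1.63, -1.45, -1.27, -1.10 and -1.58 in the metformin mice and at -1.84, -1.83, -2.07 and -2.17 in the CCl4 mice, again with no overlap, and was higher (0.51 ± 0.14 SE, limma adjusted p = 0.0155). The first 2 probes carry the same RefSeq transcript accession and the third a predicted transcript; which transcripts each one binds was not tested. In the authors' deposited table, which holds 4595 probes, the lower probe is the single member probe present, with an authors' mean of 8.76 for metformin and 9.57 for CCl4 (log2 difference -0.82).

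Metformin mouse 6 was the lowest of its group for 9 of the 10 genes. Without this mouse the ligands kept their calls, and the members called were Tgfb1, Tgfb2, Tgfb3, Smad2 and Smad7. Its 75th percentile intensity, 237, was the lowest of the 10 arrays, close to the 238 of CCl4 mouse 2. The median level of all features on its array, 0.0076, lay within those of the other metformin arrays (-0.018 to 0.014). How often this mouse was the lowest of its group over all features was not counted. The part of array brightness in its low values was not tested.

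**Figure D4:**
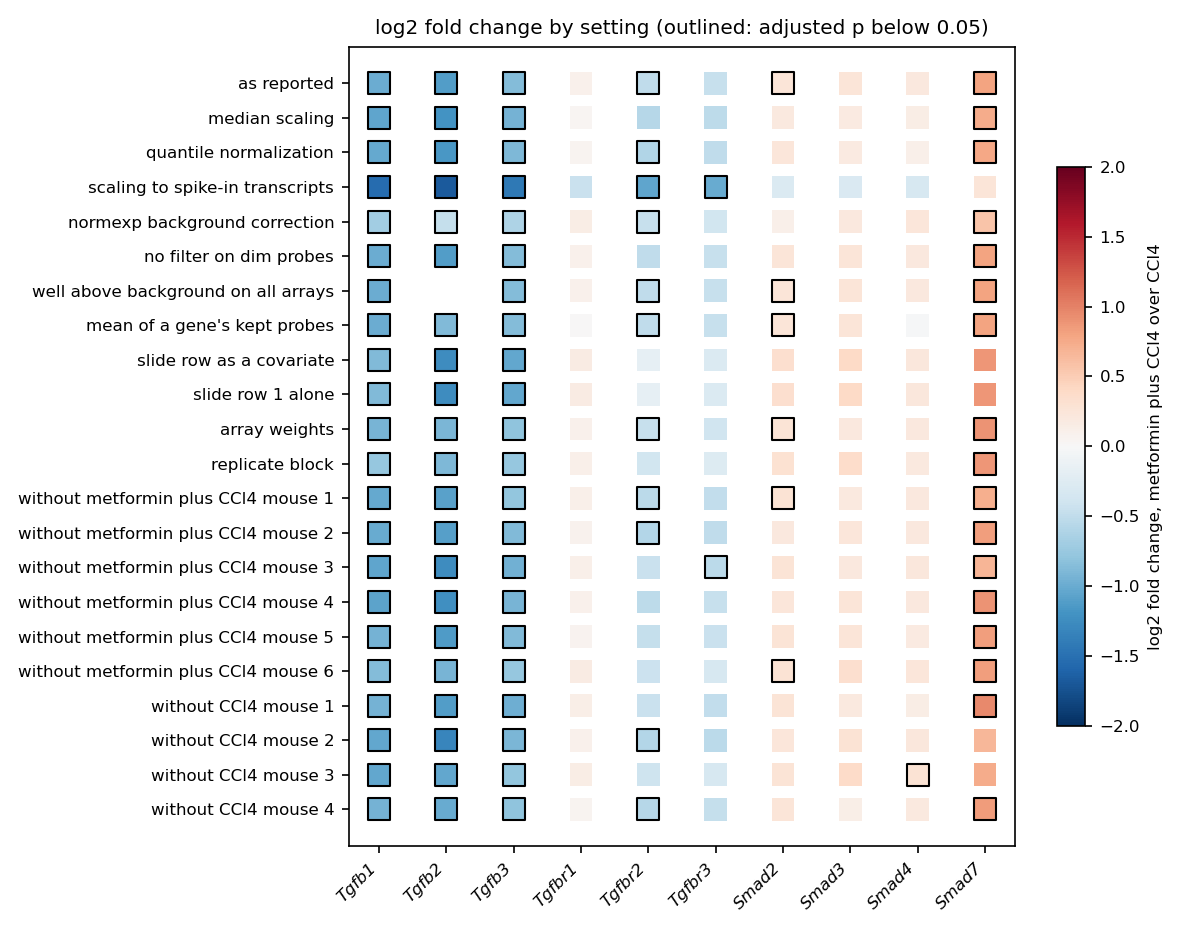
Log2 fold change of each gene (columns; blue lower and red higher with metformin) as reported and under each other processing choice (rows), with a black outline where the adjusted p was below 0.05. The 3 ligand columns are outlined in every row in which they have a value, the Tgfbr1 and Smad3 columns in none, and Smad2 turns blue in the row for scaling to spike-in transcripts.

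The other genes of the pathway were described from 9 lists by role, also chosen with earlier results of these data known. Of 114 tested genes, 46 were lower and 13 higher, against 47.4% of all named genes called in either direction (19.7% lower and 27.7% higher). Their median log2 fold change was -0.35, against 0.10 over all features. The lists follow the path from the latent complex to the response genes, and 5 genes stand in 2 lists. The shares of all named genes, 19.7% lower and 27.7% higher, are also the background for the counts of each list below. In 5 of the 114 genes (Fbn2, Foxh1, Fstl3, Il11 and Mmp9) the filter on dim probes was passed through the CCl4 group alone, so a lower level with metformin was built into their selection; among the other 109, 43 were lower and 13 higher. With spike-in scaling, 0 inhibitors or ubiquitin enzymes and 0 response genes were called higher by limma, in place of 3 and 3.

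**Figure D5:**
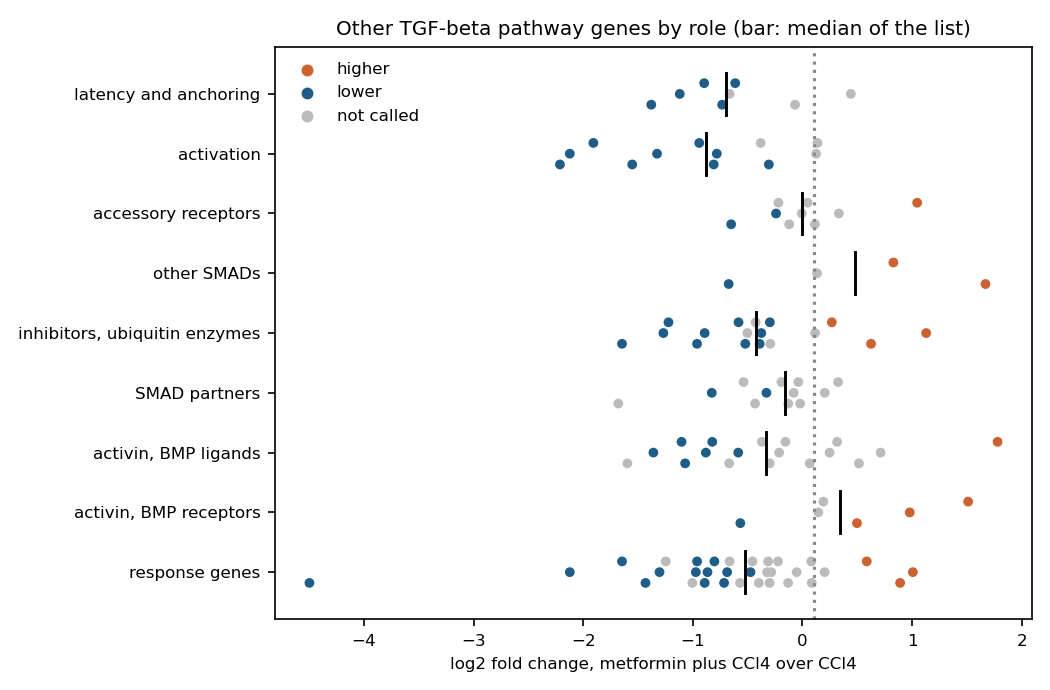
Log2 fold change, metformin plus CCl4 over CCl4 (horizontal axis), of each tested gene in 9 role lists (rows); colours give the call at an adjusted p of 0.05, black bars the median of a list and the dotted line the median of all features, 0.10. The latency and activation rows hold no gene called higher, and the activin and BMP receptor row holds 3.

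Genes of latent TGF-beta anchoring and release were called lower and not higher. In the latency list 5 of 8 genes were lower and 0 higher (median -0.70; by limma at an unadjusted p below 0.05, 6 and 1). One of the 5, Fbn2, passed the filter through the CCl4 mice alone, and 4 of the other 7 were lower. Fbn1, the fibrillin of elastic microfibrils, fell by 1.12 on the log2 scale (± 0.19 SE, limma adjusted p = 9.69e-04), or by -0.50 with normexp, and the latent TGF-beta binding protein genes Ltbp4 and Ltbp3 fell by 0.90 ± 0.20 SE and 0.61 ± 0.16 SE. Second probes of Ltbp4 and Ltbp3 gave -1.21 and -1.12. Fbn2, another fibrillin, was not well above background in any metformin mouse and was at least 1.89-fold lower there in the main scaling. That bound did not hold with normexp, where the log2 fold change of Fbn2 was -0.30, a smaller fall. Ltbp1 was the fifth gene called lower (-0.73, named after its value was seen; -0.38 with normexp, and -0.57, adjusted p = 0.0692, without CCl4 mouse 3). Lrrc32, which holds latent TGF-beta on cell surfaces, had a value of -0.07 (adjusted p = 0.738). Nrros, named after its value was seen, went the other way at 0.44 and did not pass (limma adjusted p = 0.0582).

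The activation list had 9 of 12 tested genes lower and 0 higher (median -0.88; by limma at an unadjusted p below 0.05, 10 and 0). One of the 9, Mmp9, passed the filter through the CCl4 mice alone. The other 8, of 11 genes, had groups that did not overlap, with metformin lower, against 12.2% of all features. Tgm2, the transglutaminase that crosslinks the latent complex to matrix, fell by 2.12 ± 0.15 SE (limma adjusted p = 1.95e-05). The gelatinase gene Mmp2 fell by 1.91 ± 0.27 SE (-1.24 with normexp), and the integrin genes Itgav and Itgb1, whose products can pull TGF-beta out of its latent complex, by 0.94 ± 0.12 SE and 0.78 ± 0.091 SE. Second probes gave -1.45 for Itgav and a smaller -0.33 for Itgb1 (limma adjusted p = 0.0385). The other 5 called lower, named after their values were seen, were Mmp9, Itga8 (-1.55), Thbs1 (-1.33, or -0.55 with normexp), Itgb3 (-0.81) and Itgb5 (-0.31). Mmp9 was not well above background in any metformin mouse and was at least 1.89-fold lower there in the main scaling. That bound did not hold with normexp, where the log2 fold change of Mmp9 was -0.41, a smaller fall. Plg, the hepatocyte-made precursor of plasmin, had a value of 0.12 (adjusted p = 0.398). Itgb6, Itgb8 and Plau were too dim to test.

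Among accessory receptors, 1 of 9 was higher and 2 were lower (median -0.01). Zfyve9, or SARA, which brings SMAD2 and SMAD3 to the receptor, rose by 1.05 ± 0.15 SE (limma adjusted p = 3.96e-04; 0.68 with normexp). Eng, the endothelial accessory receptor endoglin, fell by 0.65 ± 0.15 SE, and Strap, a receptor-binding protein, by 0.24 ± 0.086 SE (adjusted p = 0.0417), a call lost in 12 alternatives (-0.12 with normexp). Fkbp1a, an immunophilin that holds the type I receptor inactive, had a value of -0.12 (adjusted p = 0.547).

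The SMADs outside the core split by gene. Smad1, which carries BMP signals, fell by 0.67 ± 0.086 SE (-1.03 with the mean of its probes; limma adjusted p = 2.06e-04; second probe -1.39). Smad5, which does so too, rose by 0.83 ± 0.087 SE (adjusted p = 8.03e-05), although its second probe gave 0.21 (adjusted p = 0.242), the mean of its probes 0.52 and the spike-in scaling 0.28 (adjusted p = 0.274). Smad9 rose by 1.67 ± 0.34 SE (adjusted p = 0.00272), and Smad6, the inhibitory SMAD of the BMP branch, had a value of 0.13 (adjusted p = 0.656).

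The list of inhibitors and ubiquitin enzymes, whose members do not all act against the pathway, had 10 of 17 genes lower and 3 higher (median -0.43). Skil, which encodes the SMAD corepressor SnoN and is itself a TGF-beta response gene, fell by 1.65 ± 0.22 SE, and Pmepa1, a response gene whose product sequesters SMAD2 and SMAD3, by 0.96 ± 0.10 SE (-0.60 with normexp). Usp9x, a deubiquitinase of SMAD4 that favours signalling, fell by 1.22 ± 0.11 SE (limma adjusted p = 3.43e-05). Trim33, a ubiquitin ligase for SMAD4, rose by 1.13 ± 0.13 SE (adjusted p = 1.47e-04; 0.58 and adjusted p = 0.0545 with spike-in scaling; 0.75 with normexp). The other 2 called higher, Rnf111 (0.63) and Usp4 (0.27, a call lost in 9 alternatives), and Usp11 among those lower (-0.89, or -0.54 with normexp) are named after their values were seen. They too are no inhibitors of the pathway: RNF111 degrades SMAD7 and SnoN, and USP4 and USP11 deubiquitinate TGFBR1. Tgif1, a corepressor, had a value of -0.43 (adjusted p = 0.0719).

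Nuclear partners of the SMADs were called in 2 of 12 cases, both lower (median -0.16): Sp1, which binds GC boxes, by -0.33 ± 0.089 SE (limma adjusted p = 0.0125), and Runx1 by -0.83 ± 0.24 SE (adjusted p = 0.0167; 0.0541 without CCl4 mouse 3, and a value of -0.37 with normexp). Jun, a subunit of AP-1, had a value of -0.08 (adjusted p = 0.905). In the activin and BMP ligand list, 6 of 18 genes were lower and 1 higher (median -0.33), or 5 and 1 of 17 without Fstl3. The BMP antagonist gene Chrd fell by 1.07 ± 0.21 SE (-0.59 with normexp), the activin antagonist gene Fstl3 by 1.36 ± 0.27 SE (well above background in 4 of 6 metformin mice; -0.51 with normexp), and Inhbc and Gdf2, ligand genes expressed in liver, by 0.88 ± 0.20 SE and 0.82 ± 0.19 SE. Inhbe was the gene called higher (1.78, named after its value was seen; the call was lost in 9 alternatives). Gdf15 had the wide value of -1.60 ± 1.03 SE (adjusted p = 0.228).

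Activin and BMP receptors showed 3 of 6 genes higher and 1 lower (median 0.34, but -0.21 with spike-in scaling, which left 1 higher). Acvr2b rose by 1.51 ± 0.16 SE (limma adjusted p = 7.57e-05), Acvr1 by 0.98 ± 0.22 SE and Bmpr1a by 0.50 ± 0.10 SE. A second Acvr1 probe gave -0.03 (adjusted p = 0.936) and the mean of its probes 0.48 (0.105), and spike-in scaling put Bmpr1a at -0.05 (adjusted p = 0.857) and Acvr1 at 0.43 (adjusted p = 0.226). Acvr1b, an activin receptor, fell by 0.57 ± 0.20 SE (adjusted p = 0.0365), a call lost in 11 alternatives (-0.18 with normexp). Bmpr2 had a value of 0.19 (adjusted p = 0.263).

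Of 32 tested TGF-beta response genes, 13 were lower and 3 higher (median -0.52). Besides Tgm2 and Pmepa1, the rule named Cdkn1a, the cell cycle inhibitor p21, which fell by 4.50 ± 0.52 SE (limma adjusted p = 1.26e-04), and Snai1, a transcription factor of epithelial-mesenchymal transition, which fell by 1.30 ± 0.13 SE (adjusted p = 6.73e-05; -0.75 with normexp). Both respond to other signals too. Tpm1, a tropomyosin, had a value of -0.31 (adjusted p = 0.139), and its other tested probes ranged from -0.78 to 0.05. The 3 called higher, named after their values were seen, were Fn1 (0.89), Nox4 (0.59, or 0.30 and adjusted p = 0.0864 with the mean of its probes) and Id2 (1.01, or 0.81 and adjusted p = 0.0672 without CCl4 mouse 2). Named in the same way, the textbook response gene Ccn2 (-0.46, adjusted p = 0.276) did not pass, nor did the collagen gene Col1a1 (-1.0, adjusted p = 0.0733, but called in 6 alternatives), while Col1a2 (-0.97, adjusted p = 0.00843) and Col3a1 (-0.89, adjusted p = 0.0451, a call lost in 12 alternatives) were lower. In the slide row that holds both groups, the calls of Smad9 (adjusted p = 0.0651), Sp1 (0.123), Runx1 (0.0573), Fstl3 (0.0565) and Acvr1 (0.105) were lost too, and with slide row as a covariate that of Eng (0.0929). Spike-in scaling ended the calls of Rnf111, Fn1, Nox4 and Id2, whose log2 fold changes were then 0.075, 0.34, 0.036 and 0.46.

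Markers of cell types that make or respond to TGF-beta were measured on the same arrays. Over all features, 17.4% were called lower and 28% higher, and in 33.7% the groups did not overlap. That last share is for single features and is no background for a summed level. Stellate cell and myofibroblast markers were lower in 6 of 8 cases and higher in 0 (by limma at an unadjusted p below 0.05, 7 and 0), and their summed log2 level ran from 2.09 to 2.59 with metformin and from 3.15 to 3.52 with CCl4 alone, without overlap. Those named by rule were Reln (-1.59), Ngfr (-1.54), Des (-1.28) and Pdgfrb (-1.11), all with limma adjusted p of 0.00290 or lower (Reln -1.01 and Des -0.65 with normexp). Not called were Col1a1 (-1.0) and Lrat (-0.32). Lox was too dim to test and no tested marker was below background in a whole group. The part of stellate cell number in the fall of the ligands was not tested. Kupffer cell and macrophage markers were lower in 3 of 8 cases and higher in 0 (C1qb -1.22, C1qa -0.84, Cd68 -0.70). For C1qa the limma adjusted p was 0.105 with slide row as a covariate. Not called were Clec4f (-0.29), Csf1r (-0.10), Adgre1 (-0.06), Timd4 (0.02) and Vsig4 (0.07), and the summed level was 5.87 to 6.80 against 6.42 to 6.70. Endothelial markers were lower in 3 of 8 cases and higher in 0 (Vwf -1.28, Pecam1 -0.88, or -0.56 with normexp, Plvap -0.85). Not called were Cdh5 (-0.40), Stab2 (-0.26), Lyve1 (-0.22), Clec4g (-0.06) and Kdr (0.45), and the summed level was 5.67 to 6.42 against 6.19 to 6.46.

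Platelets carry much TGFB1 protein, and of their markers 2 of 5 were lower (Itga2b -1.16, or -0.48 with normexp, and Ppbp -0.71, or -0.45 with normexp, a call lost in 10 alternatives; summed level 1.27 to 2.36 against 1.86 to 2.44). Bile duct markers were lower in 3 of 5 cases and higher in 1, at summed levels of -0.42 to 0.35 against 0.24 to 0.76. Among these, Krt7 (-1.14) and Epcam (-1.46) passed the filter through the CCl4 mice alone and were well above background in 4 and 1 of the 6 metformin mice; normexp gave -0.41 and -0.46, and the Epcam call was lost in 13 of 21 alternatives. Of the other 3, Krt19 was lower (-1.17; -0.64 with normexp, and adjusted p = 0.0821 in the shared slide row) and Cftr higher (0.80; 0.40 with normexp, and 0.25 and not called with spike-in scaling). Hepatocyte markers were lower in 2 of 8 (Cps1 -0.75, Apoa1 -0.43) and higher in 1 (Asgr1 0.43; second probe -0.06, 0.18 and not called with the mean of its probes, 0.27 with quantile normalization and -0.12 with spike-in scaling). T and NK cell markers were called in 0 of 4 cases by limma, and in 0 at an unadjusted p below 0.05 (summed level 4.68 to 5.61 against 5.02 to 5.49). These counts stand beside 17.4% of all features called lower and 28% called higher. The part of these cell types in the members' values was not tested.

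The named genes whose levels followed each core gene most closely over the 10 mice were found from the root mean square (RMS) difference of their centred log2 levels. Tgfb1 was followed most closely by Tie1 (RMS difference 0.157), Tinagl1 (0.172) and Ucp2 (0.181), beside its own range of 1.79. Tgfb3 was followed by Col5a1 (0.122), Ccl19 (0.152) and Septin4 (0.153), and Tgfb2 by Daam2 (0.244), Cd74 (0.247) and B3gnt9 (0.249). For the receptors the nearest genes were Zfp106 (0.057), Slc25a5 (0.069) and Foxj3 (0.074) for Tgfbr1, Zdhhc20 (0.099), Utp15 (0.136) and Rras2 (0.136) for Tgfbr2, and Anxa1 (0.061), Dpysl3 (0.086) and Rab8b (0.103) for Tgfbr3. For the SMADs they were Cisd1 (0.067), Mmachc (0.078) and Ikzf5 (0.079) for Smad2, Tor1a (0.119), Ppm1d (0.133) and Tal1 (0.139) for Smad3, Otud5 (0.059), Topors (0.061) and Zfand3 (0.061) for Smad4, and Slc52a3 (0.202), Bmp2k (0.232) and Gpr135 (0.243) for Smad7. These are the nearest of all tested named genes, and the points share their arrays and the difference between the groups.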

How the data were processed

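The deposited files hold spot intensity values from 1-colour Agilent arrays, background-subtracted and detrended by Agilent Feature Extraction 10.7.3.1, per the file headers. The authors also deposited a log2 table of 4595 probes, quantile-normalized and filtered on their comparison, per its first line. Its columns followed their own arrays (r at least 0.9997); its test is not given in the sources used here. Groups come from the sample titles.

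From the intensities, log2 values minus the array's 75th percentile were taken, repeat spots averaged, and a probe kept if 75% or more of either group's arrays showed it well above background (29575 of 55681). Symbols were found for 28679 probes through the RefSeq table of GRCm38.p6, used for names. Of these, 28664 were matched by accession and the others by symbol or synonym. The arrays' grid names another build. The brightest kept probe represented a gene; unnamed probes were grouped by accession. Limma 3.58.1 (R 4.3.3, lmFit, eBayes, two-sided) was tested on simulated data. P-values were Benjamini-Hochberg adjusted over 22180 features. Those of a gene's other probes came from a separate limma fit and were adjusted over the kept probes. Exact permutation tests enumerated mice. A bound ("at least N-fold") sets the bright group's mean against the lowest signal well above background, on the 75th percentile scale only. Named from a role list were the 4 called genes with the smallest adjusted p and the brightest uncalled one, from a marker list the 4 called, and per member the 3 nearest genes. Members and lists were chosen with earlier results of these data known. The normexp alternative (offset 50) used median intensities. Figures were drawn with matplotlib 3.10.9.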

Additional observations from a re-analysis of the deposited data

Results flagged for a closer look

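In 1 of the 36 sets of values looked at (10 genes and 8 pairs, each in 2 groups), 1 mouse lay far from its group: Tgfbr2 minus Tgfbr3 was 1.38 in metformin mouse 3, whereas the other metformin mice lay between 2.06 and 2.41. The gap to the nearest mouse was 0.658 of the group's range, above Dixon's 95% limit for 6 values. Chance gives about 1 such case in 20 sets.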

How the results depend on the processing

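The numbers of arrays, 6 and 4, limit the precision, and dim probes limit Tgfb2. Of the 10 genes, 3 (Tgfb1, Tgfb2, Tgfb3) were called with slide row as a covariate and 3 within slide row 1 alone, in place of 6; both rest on metformin mice 1 and 2. All features called fell to 6248 within slide row 1, from 10068. Leaving out each mouse in turn gave 4 to 6 genes, 8594 to 9788 features and 51 to 60 role genes called. The mean of a gene's probes gave 0 called pairs in place of 2. With 1 mouse left out the exact test cannot go below 0.0159 or 0.0238, within slide row 1 0.133 and with the replicate block 0.125, so pairs were given there as values only or not run; the permutation count adjusted over the members alone was not run. Mouse numbers did not pair the samples (correlations of deviations -0.14, -0.12, 0.09 and -0.004), and the replicate block called 4 genes (Tgfb1, Tgfb2, Tgfb3 and Smad7) and 6807 features. Treating each unnamed probe as its own feature, chosen after seeing the data, called 6 genes and 11069 of 25165 features.

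Signs turned with spike-in scaling for Tgfbr1 (-0.44), Smad2 (-0.29), Smad3 (-0.30), Smad4 (-0.34), Plg (-0.43), Smad6 (-0.42), Bmpr1a (-0.053), Bmpr2 (-0.36), Usp4 (-0.28) and Asgr1 (-0.12), none called there. They turned with the mean of probes for Smad4 (-0.020), Fkbp1a (0.046) and Tgfb1 minus Tgfb2 (-0.10), with normexp for Lrrc32 (0.0028), Tgfb1 minus Tgfb2 (-0.22), Tgfb2 minus Tgfb3 (0.14) and Smad2 minus Smad3 (-0.092), with quantile normalization for Plg (-0.041), in both slide row fits for Plg (-0.011), and for second probes of Tgfbr1 (-0.079) and Smad4 (-0.78). Leaving out 1 mouse gave -0.14 to 0.045 for Lrrc32, -0.065 to 0.28 for Smad6 and -0.38 to 0.20 for Jun, none called. The cause was not tested.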
